A study of Mus musculus with 76 samples.

Results

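The genes described here are the 10 that make, move and break down the monoamines dopamine, noradrenaline and serotonin: Th, Tph1, Tph2, Ddc, Dbh, Slc18a2, Slc6a2, Slc6a4, Maoa and Maob. They were chosen by name, all 10 of the 10 listed were found among the 38924 genes of the deposited table, and no measured value entered the choice. They were measured by RNA sequencing of neural cultures differentiated from mouse embryonic stem cells of C57BL/6J (B6), the common laboratory strain, and WSB/EiJ (WSB), a strain derived from wild mice. Values are CPM: the deposited expected counts of a library, with repeat runs summed, scaled to the same total over genes in every library.

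Cultures were sampled at 3 stages: neural progenitor (NPC), maturation, and a later stage used for axonal injury, here the axon stage. At the NPC and maturation stages, cultures of each strain received either ID-8, which inhibits the kinase DYRK1A, or the control treatment, giving 4 groups of 6 libraries and 4 groups of 4 libraries. At the axon stage each strain had control or ID-8 cultures with axons cut or left uncut. These 8 groups held 4 libraries each, save for 3 in the uncut WSB group given ID-8 and 3 in the cut B6 group given ID-8. No source used here says which control treatment was given, for how long ID-8 was applied or how long after the cut RNA was taken.

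Catecholamines begin with tyrosine hydroxylase (Th) and serotonin with tryptophan hydroxylase, of which Tph2 is the neuronal form and Tph1 the form of the gut and pineal gland. Aromatic amino acid decarboxylase (Ddc) completes dopamine and serotonin, dopamine beta-hydroxylase (Dbh) turns dopamine into noradrenaline, and Slc18a2 loads all of these amines into vesicles. The plasma membrane transporters Slc6a2 and Slc6a4 take noradrenaline and serotonin back up, and the monoamine oxidases Maoa and Maob break the amines down, Maob being known in astrocytes as well as in serotonergic neurons.

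All 10 are protein-coding genes, given here by their span on GRCm38. The hydroxylase genes are Th at chr7:142892752-142931128, Tph1 at chr7:46644641-46672537 and Tph2 at chr10:115078641-115185022, all on the minus strand. Ddc lies at chr11:11814101-11898144 on the minus strand and Dbh at chr2:27165233-27183200 on the plus strand. The transporter genes Slc18a2 (chr19:59260896-59296012), Slc6a2 (chr8:92960079-93001667) and Slc6a4 (chr11:76998603-77032340) lie on the plus strand. Maoa (chrX:16619698-16687818, plus strand) and Maob (chrX:16709282-16817366, minus strand) are neighbours.

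Library totals ran from 20369003 to 131489448 counts, so 1 count is worth a small fraction of 1 CPM in any library. The summed level of 6 pan-neuronal genes, Map2, Tubb3, Rbfox3, Snap25, Elavl3 and Stmn2, lay between 244 and 3920 CPM at the NPC stage, between 1370 and 3250 CPM at maturation and between 1830 and 5290 CPM at the axon stage. At the axon stage the library labelled WSB ID-8 cut replicate 3 went against its strain label: every gene used to separate the strains lay on the B6 side in it, as in all 15 libraries labelled B6, against 0.0% to 4.63% of those genes in the other 14 WSB libraries. Results that rest on it are given with and without it. Nothing in the labels says that replicates were separate differentiations, so p-values measure the spread between these libraries, which may be partly technical. In bulk RNA, fewer cells that express a gene and less of its RNA in each cell cannot be told apart.

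Promoter sequences are printed for 4 genes because their genes carry the main results that follow: Th and Slc18a2 were lower in ID-8 treated B6 progenitors, and Tph2, Slc6a4 and Slc18a2 differed together between culture sets of the axon stage. They come from RefSeq on GRCm38.p6, which held windows for 8 of the 10 genes, and run 5′ to 3′ on the gene's strand over 254 bases, from 250 before the start site to 4 after it. Capitals mark the cyclic AMP response element TGACGTCA and 4 words bound by GATA factors, AGATAA with AGATAG, and TGATAA with TGATAG, all sought on both strands.
Th, chr7:142899992-142900245, minus strand: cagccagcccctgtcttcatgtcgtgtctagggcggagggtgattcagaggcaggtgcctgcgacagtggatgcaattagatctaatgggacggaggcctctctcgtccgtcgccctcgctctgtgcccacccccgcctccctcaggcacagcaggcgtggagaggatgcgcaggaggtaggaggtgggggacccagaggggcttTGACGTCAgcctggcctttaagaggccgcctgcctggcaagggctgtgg
Slc18a2, chr19:59260628-59260881, plus strand: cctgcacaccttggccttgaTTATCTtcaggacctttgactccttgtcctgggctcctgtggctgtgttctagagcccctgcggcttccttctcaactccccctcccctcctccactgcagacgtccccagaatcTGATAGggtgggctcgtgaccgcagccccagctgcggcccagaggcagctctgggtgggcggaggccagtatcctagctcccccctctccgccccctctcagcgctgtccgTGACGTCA
Tph2, chr10:115185019-115185272, minus strand: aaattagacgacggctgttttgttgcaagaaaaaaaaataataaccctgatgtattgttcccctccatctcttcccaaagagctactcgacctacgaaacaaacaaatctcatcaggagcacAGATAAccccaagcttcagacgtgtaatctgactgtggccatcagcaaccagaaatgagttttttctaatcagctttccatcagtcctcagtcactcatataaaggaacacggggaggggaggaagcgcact
Slc6a4, chr11:76998347-76998600, plus strand: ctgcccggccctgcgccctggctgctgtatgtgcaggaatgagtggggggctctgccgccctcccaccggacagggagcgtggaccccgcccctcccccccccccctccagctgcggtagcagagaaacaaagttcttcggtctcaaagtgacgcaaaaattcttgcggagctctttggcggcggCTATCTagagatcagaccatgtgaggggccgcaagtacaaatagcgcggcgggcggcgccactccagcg
The response element began at position -45 in Th and at position -4 in Slc18a2, and of 32851 RefSeq promoter windows of 300 bases 1.79% held it. A GATA word began at -128 in Tph2, at -65 in Slc6a4, and at -230 and -115 in Slc18a2, and 29.8% of all windows held at least 1. The core promoter word TATAAA began at -30 in Tph2 and was held by 13.6% of windows. The word CCGGAA, an ETS factor core, was in no window of the 8 genes and in 14.9% of all. These matches describe the letters and say nothing of binding.

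Maoa averaged 85.9 CPM over the 16 group means, with its lowest mean, 30.1 CPM, in WSB NPC controls and its highest, 157 CPM, in WSB cut axon controls. Per transcript length, in TPM, which scales counts by exon length and library, B6 NPC controls held Maoa at 28.1, Slc6a2 at 19.8, Slc18a2 at 17.0 and Th at 16.4 TPM, while Tph2 stood at 0.130 and Slc6a4 at 0.214 TPM. In WSB NPC controls Th came first at 32.7 TPM, ahead of Maoa at 24.6 TPM. At maturation Maoa led in both strains, at 51.5 TPM in B6 and 46.5 TPM in WSB controls, followed by Maob at 8.79 TPM in B6 and by Th at 20.5 TPM in WSB. In uncut B6 axon controls Maoa stood at 56.2 TPM, followed by Slc18a2 at 10.6, Slc6a4 at 8.01, Tph2 at 7.38 and Th at 4.74 TPM. These are orders of means, and single libraries differed widely. Slc6a4 ran from 1.09 to 16.8 TPM in uncut B6 axon controls, where Th ran from 3.10 to 7.83 TPM. Maob ran from 2.29 to 15.0 TPM in B6 maturation controls. Progenitors thus held the catecholamine genes Th and Slc6a2, with Dbh at only 0.678 TPM in B6 controls, and very little Tph2 or Slc6a4. Th, Tph2 and Slc6a4 were all present in uncut B6 axon controls. Dbh (mean 0.479 CPM) and Tph1 (mean 0.178 CPM) were low in all 16 groups, with 4 and 15 of 70 libraries at 0 counts. The dopamine transporter Slc6a3 had no group mean above 0.317 CPM at any stage. Ordered by level over the 16 groups, most neighbouring groups overlapped: of 15 neighbouring pairs, 1 was separate for Th, Slc18a2, Maoa and Maob, 2 for Tph2 and 0 for the other 5 genes.

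**Figure D1:**
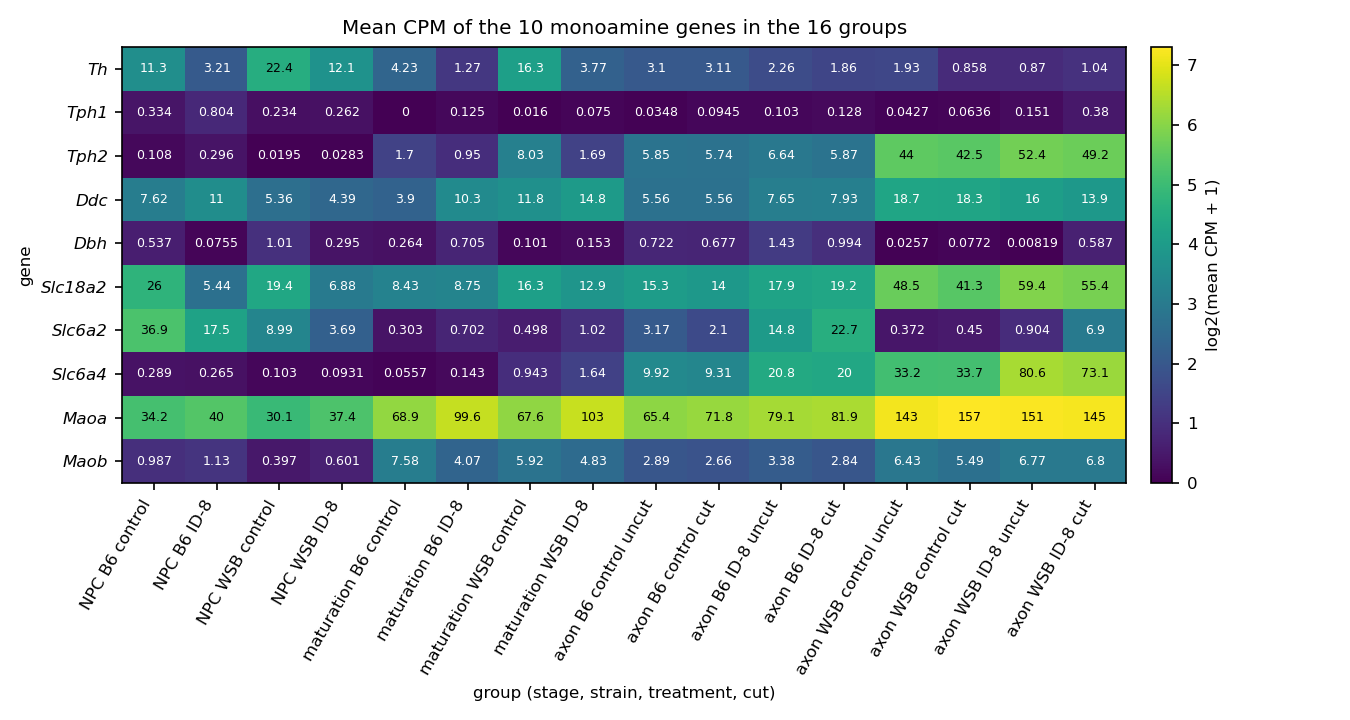
Mean CPM of each gene (rows, by role) in each of the 16 groups (columns), with the value printed and the colour giving log2(mean CPM + 1). Tph2 and Slc6a4 are dark at the NPC stage and bright in the WSB axon groups, where Tph2 means run from 42.5 to 52.4 CPM, and Slc6a2 is bright in control B6 progenitors at 36.9 CPM. Those Tph2 means are carried by 1 library per group, at 142 to 176 CPM, and the group medians are 8.42 to 10.8 CPM. Slc6a4 medians in the WSB axon groups are 8.23 to 23.7 CPM.

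In neural progenitors ID-8 lowered the vesicular transporter Slc18a2 and, at low levels, Dbh in both strains, and Th in B6. Th ran over 5.33, 11.5 and 16.6 CPM (lowest, median and highest of 6 libraries) in B6 controls and over 2.11, 2.89 and 4.67 CPM in B6 ID-8. The groups did not overlap, and Th fell by 1.74 ± 0.37 on the log2 scale (SE, n = 6 and 6, adjusted p = 0.00108) by edgeR's quasi-likelihood test over 17248 genes with Benjamini-Hochberg adjustment, which gave every adjusted p below unless another tool is named. Within the first and second library blocks, read here from the library numbers in the sample titles, the difference was -1.37 (adjusted p = 0.0973) and -2.04. In WSB, Th ran over 13.6, 20.2 and 33.1 CPM against 5.37, 10.3 and 26.6 CPM, with overlap: 1 ID-8 library, replicate 1, stood at 26.6 and the other 5 at or below 11.5 CPM. The WSB difference of -0.89 ± 0.37 did not pass (adjusted p = 0.136), and the blocks gave -0.078 and -1.80.

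Dbh, low throughout, ran over 0.297, 0.510 and 0.832 CPM in B6 controls against 0.0169, 0.0689 and 0.158 CPM in ID-8, without overlap. It fell by 2.66 ± 0.62 (adjusted p = 0.00201), with -2.48 (adjusted p = 0.0953) and -2.77 within blocks. In WSB, Dbh overlapped between 0.182 to 1.98 CPM and 0.0456 to 0.818 CPM and fell by 1.83 ± 0.55 (adjusted p = 0.0376), with -1.55 and -2.29 within blocks, neither passing alone, and -1.77 without the block term (adjusted p = 0.0678). Ddc ran over 5.69, 7.31 and 10.7 CPM in B6 controls and 9.61, 10.4 and 13.1 CPM in ID-8, with overlap, and rose by 0.60 ± 0.22 (adjusted p = 0.0310), with 0.64 and 0.59 within blocks, neither passing alone. Tph1 rose in B6 by 1.32 ± 0.49 (adjusted p = 0.0357), with 1.85 and 0.62 within blocks, neither passing alone, at means of 0.334 ± 0.190 and 0.804 ± 0.702 CPM (SD, n = 6). Tph2 fell under the low-count filter in the fit of both library blocks. Its B6 ID-8 libraries held 0.188 to 0.462 CPM, all above the B6 controls at 0.0225 to 0.168 CPM, and 4 of 6 WSB controls were at 0 counts.

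Slc18a2 separated fully in both strains. In B6 it ran over 20.8, 26.0 and 31.2 CPM in controls and over 4.92, 5.15 and 6.41 CPM in ID-8, and in WSB over 12.2, 21.4 and 26.6 CPM against 4.09, 6.55 and 9.42 CPM. It fell by 2.19 ± 0.19 in B6 (adjusted p = 3.69e-07) and by 1.47 ± 0.19 in WSB (adjusted p = 0.000141). Within the library blocks the B6 difference was -1.99 and -2.36 and the WSB difference -1.43 and -1.49, the last with an adjusted p of 0.0809. Slc6a2 ran over 13.9, 39.1 and 52.9 CPM in B6 controls and 6.65, 16.3 and 31.0 CPM in ID-8, a difference of -0.99 ± 0.46 (adjusted p = 0.0908). In WSB it differed by -1.26 ± 0.47 (adjusted p = 0.0965), and DESeq2 called it (-1.27, adjusted p = 0.0412). B6 libraries sharing a culture name varied together, and with the culture name as a replicate block the B6 differences of Slc6a2 (-1.11 ± 0.32, adjusted p = 0.0101) and Maoa (0.30 ± 0.11, adjusted p = 0.0410) passed as well, where that fit called 51.4% of all genes. Slc6a4 and Maob differed by -0.042 ± 0.50 and 0.27 ± 0.40 in B6 and passed in neither strain.

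**Figure D2:**
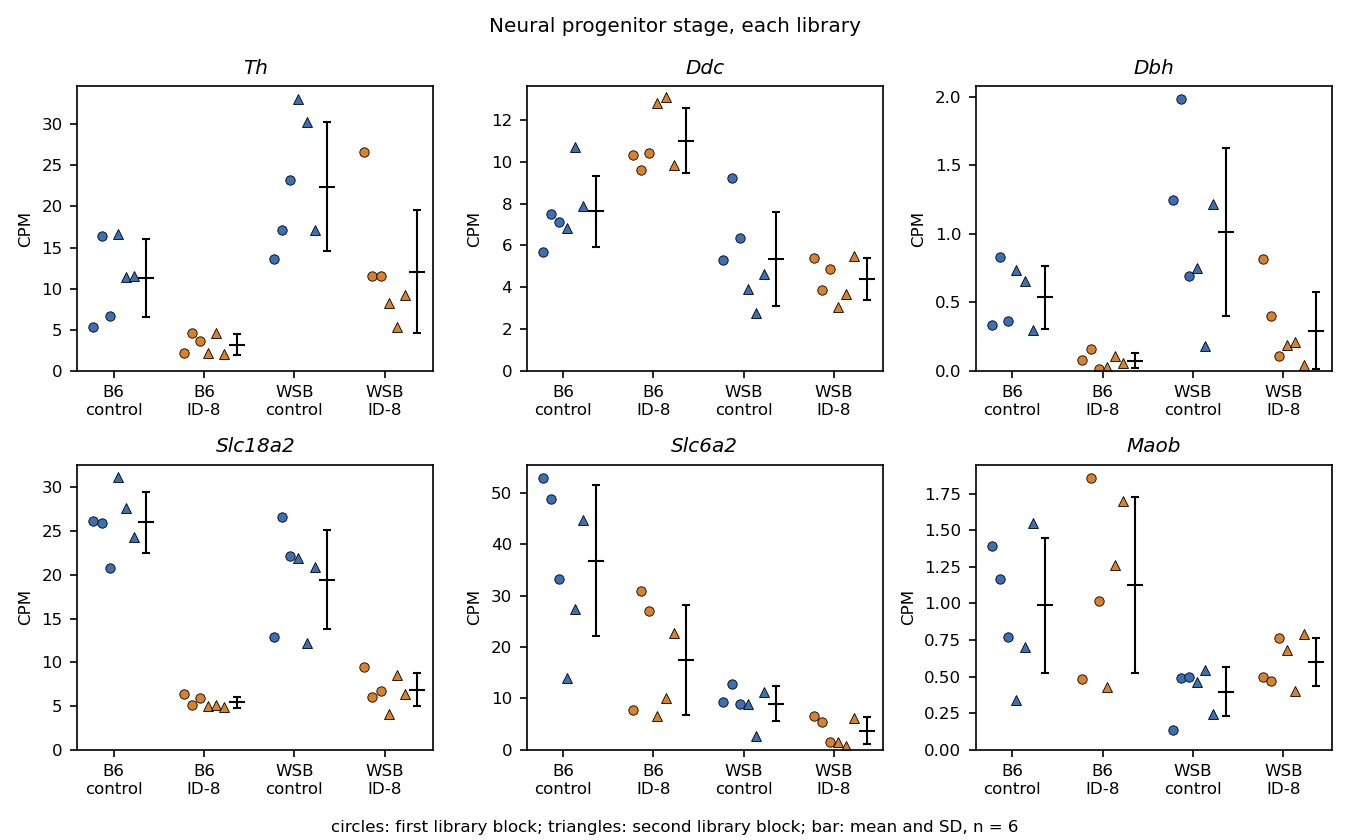
CPM of 6 genes in each NPC library (points; circles and triangles are the 2 library blocks) for control (blue) and ID-8 (orange) cultures of each strain, with the mean and SD (n = 6). Slc18a2 separates fully in both strains, B6 ID-8 libraries lying between 4.92 and 6.41 CPM and controls between 20.8 and 31.2 CPM, while Ddc and Maob overlap.

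In all, ID-8 called 5 of the 9 members tested in B6 progenitors, 2 higher and 3 lower, where 40.4% of all genes were called. In WSB it called 2 of 9, both lower, where 9.57% of all genes were called. The median difference of the 9 members was -0.042 in B6 and -0.25 in WSB, beside -0.036 and 0.0013 over all genes. No member's response differed between strains by the interaction test without a replicate block (0 of 9 with 3.19% of all genes called; 2 at an unadjusted p under 0.05, Ddc and Slc18a2; DESeq2 called 0). For Ddc that strain difference was -0.85 ± 0.31 (adjusted p = 0.119), and for Slc18a2 0.72 ± 0.26 (adjusted p = 0.121). For Ddc it passed with culture names as a replicate block (-0.81 ± 0.25, adjusted p = 0.0374, with 20.0% of all genes called). That fit also blocked WSB libraries by name, and in the second library block the WSB names were not taken as pairing.

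The other genes of the pathway were counted beside the same 40.4% of all genes called in B6 and 9.57% in WSB. Of 6 serotonergic regulators, 5 were tested and 4 fell in B6, among them the transcription factors Gata2 (-1.51, adjusted p = 0.000557), Gata3 (-1.22, adjusted p = 0.00372) and Nkx2-2 (-3.43, adjusted p = 0.00254). In WSB 2 of 5 fell, Gata2 (-1.85) and Gata3 (-1.99). Both GATA genes are also known in other lineages, trophoblast included. Of 6 noradrenergic regulators 2 fell in B6, Phox2a by 2.40 (adjusted p = 0.00170) and Gata3, and 1 fell in WSB. Of 9 dopaminergic regulators 8 were tested in B6, and 3 rose, Otx2 by 3.71 (adjusted p = 6.29e-05) among them, and 3 fell. The extraneuronal monoamine transporter Slc22a3 fell in B6 (-3.07, adjusted p = 8.44e-05) and WSB (-2.72, adjusted p = 0.00357), and the histidine decarboxylase gene Hdc rose in B6 (3.50, adjusted p = 9.31e-05). Of 7 genes for the hydroxylases' cofactor tetrahydrobiopterin, 3 rose and 1 fell in B6 and 0 of 7 passed in WSB. Of 21 monoamine receptors tested, 3 rose and 3 fell in B6, and 2 rose and 2 fell in WSB.

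Markers of other cell types moved at the same time. The summed level of the trophoblast markers Tpbpa, Ctsq and Prl7d1 went from 22.2 to 218 CPM in B6 controls to 0.4 to 12.4 CPM in ID-8, and from 12.8 to 57.8 to 0.190 to 1.30 CPM in WSB, with 3 of 3 genes lower in both strains. The 6 endoderm and liver markers rose in B6 from sums of 2.39 to 14.6 CPM to 39.1 to 287 CPM (6 of 6 higher). The 4 pluripotency markers went from 231 to 684 CPM to 531 to 1200 CPM in B6 (3 of 4 higher) and from 10.9 to 24.8 CPM to 29.2 to 213 CPM in WSB (4 of 4 higher). The WSB endoderm sums were 1.74 to 10.5 CPM and 4.44 to 27.1 CPM (1 of 6 higher). No marker of these 3 lists was at 0 in every library of an NPC group, and 3 of 6 pan-neuronal genes fell in B6 and 0 in WSB. The part of these cells in the members' changes was not tested.

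Between strains, untreated progenitors differed in Slc6a2, Th, Maob and Slc6a4. Slc6a2 ran over 13.9, 39.1 and 52.9 CPM in B6 controls and 2.73, 9.11 and 12.8 CPM in WSB controls, without overlap, a log2 difference WSB minus B6 of -1.97 ± 0.48 (adjusted p = 0.00218), with -2.08 and, at an adjusted p of 0.123, -1.91 within the library blocks. Th was higher in WSB by 1.05 ± 0.36 (adjusted p = 0.0225), with 0.97 and 1.07 within blocks, neither passing alone, and with overlapping groups. Maob differed by -1.26 ± 0.42 (adjusted p = 0.0194), with -1.50 and -1.01 within blocks, neither passing alone. Slc6a4 differed by -1.37 ± 0.55 (adjusted p = 0.0461), with -1.29 in the first block, not passing, and no test in the second; with no low-count filter its adjusted p was 0.0677. Both genes were at low levels. These made 4 of 9 members called, 1 higher and 3 lower, where 45.0% of all genes were called between the strains. The second library block alone called 2 other members and none of these 4: Ddc (-1.13, adjusted p = 0.0186) and Tph2 (-5.58, adjusted p = 0.0401, a fitted value resting on 0 counts in the 3 WSB controls), and Ddc stood at 0.083 in the first block. B6 controls also held more of the trophoblast sum (median 69.2 against 24.7 CPM) and of the pluripotency sum (median 335 against 19.8 CPM), and the part of such cells in the strain differences was not tested.

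At maturation, ID-8 lowered Th in both strains. B6 controls held 4.75, 4.18, 4.14 and 3.86 CPM (replicates 1 to 4) and B6 ID-8 libraries 1.91, 1.58, 0.743 and 0.851 CPM. WSB controls held 6.13, 7.60, 26.4 and 24.9 CPM and WSB ID-8 libraries 2.94, 4.08, 5.12 and 2.96 CPM. Neither pair of groups overlapped, although the 2 culture experiments in the culture names, replicates 1 and 2 against 3 and 4, stood far apart in WSB controls. Th fell by 1.68 ± 0.46 in B6 (adjusted p = 0.0194) and by 2.06 ± 0.45 in WSB (adjusted p = 0.0135). Without B6 ID-8 replicate 3 or replicate 4 the B6 value was -1.49 (adjusted p = 0.0513) or -1.52 (adjusted p = 0.0575).

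Tph2 fell in WSB. Its WSB controls held 3.91, 6.21, 11.6 and 10.4 CPM and its WSB ID-8 libraries 1.31, 1.17, 3.03 and 1.26 CPM, without overlap, a change of -2.20 ± 0.49 (adjusted p = 0.0151). Leaving out WSB ID-8 replicate 2 or 4 gave -2.04 (adjusted p = 0.0542) or -2.08 (adjusted p = 0.0539). In B6, controls held 1.68, 1.60, 1.67 and 1.84 CPM and ID-8 libraries 1.57, 1.42, 0.311 and 0.490 CPM. The B6 groups did not overlap either, the second experiment being lower, and the difference of -0.79 ± 0.49 did not pass (adjusted p = 0.298). The strains' responses did not differ by the interaction test for Tph2 (-1.41 ± 0.68, adjusted p = 0.588) or any of the 9 members tested (0 of 9 with 0.46% of all genes called; 0 at an unadjusted p under 0.05; DESeq2 called 0).

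Ddc rose in B6 by 1.46 ± 0.43 (adjusted p = 0.0309), on the values of the first experiment. B6 controls held 4.13, 2.68, 4.41 and 4.39 CPM, and B6 ID-8 libraries 14.7, 17.7, 4.15 and 4.74 CPM. Leaving out either of ID-8 replicates 1 and 2, or any of the 4 controls, ended the call, with adjusted p between 0.0545 and 0.115. In WSB the difference was 0.38 ± 0.42 (adjusted p = 0.680). Maoa stood at 48.6, 61.7, 79.9 and 85.2 CPM in B6 controls and, in B6 ID-8, at 67.3 and 70.2 CPM in the first experiment and up to 141 CPM in the second. In WSB it stood at 65.3, 67.4, 68.2 and 69.3 CPM in controls and 97.9, 98.3, 94.0 and 123 CPM in ID-8. Treated WSB libraries all lay above the controls, with differences of 0.66 ± 0.21 in WSB (adjusted p = 0.0844) and 0.57 ± 0.21 in B6 (adjusted p = 0.0812) that did not pass. Without B6 ID-8 replicate 1 or 2 the B6 value did pass, at 0.72 (adjusted p = 0.0316) or 0.70 (adjusted p = 0.0456). DESeq2 called Maoa in both strains. With the culture experiment as a replicate block Maoa passed in both, at 0.55 ± 0.15 in B6 (adjusted p = 0.0146) and 0.66 ± 0.15 in WSB (adjusted p = 0.00971), and in B6 so did Slc6a2 (1.30 ± 0.35, adjusted p = 0.012) and Maob (-0.73 ± 0.23, adjusted p = 0.0298). Slc18a2, which fell in progenitors, differed here by 0.10 ± 0.23 in B6 and -0.30 ± 0.23 in WSB (adjusted p = 0.805 and 0.517). The responses of the 2 stages were not tested against each other.

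**Figure D3:**
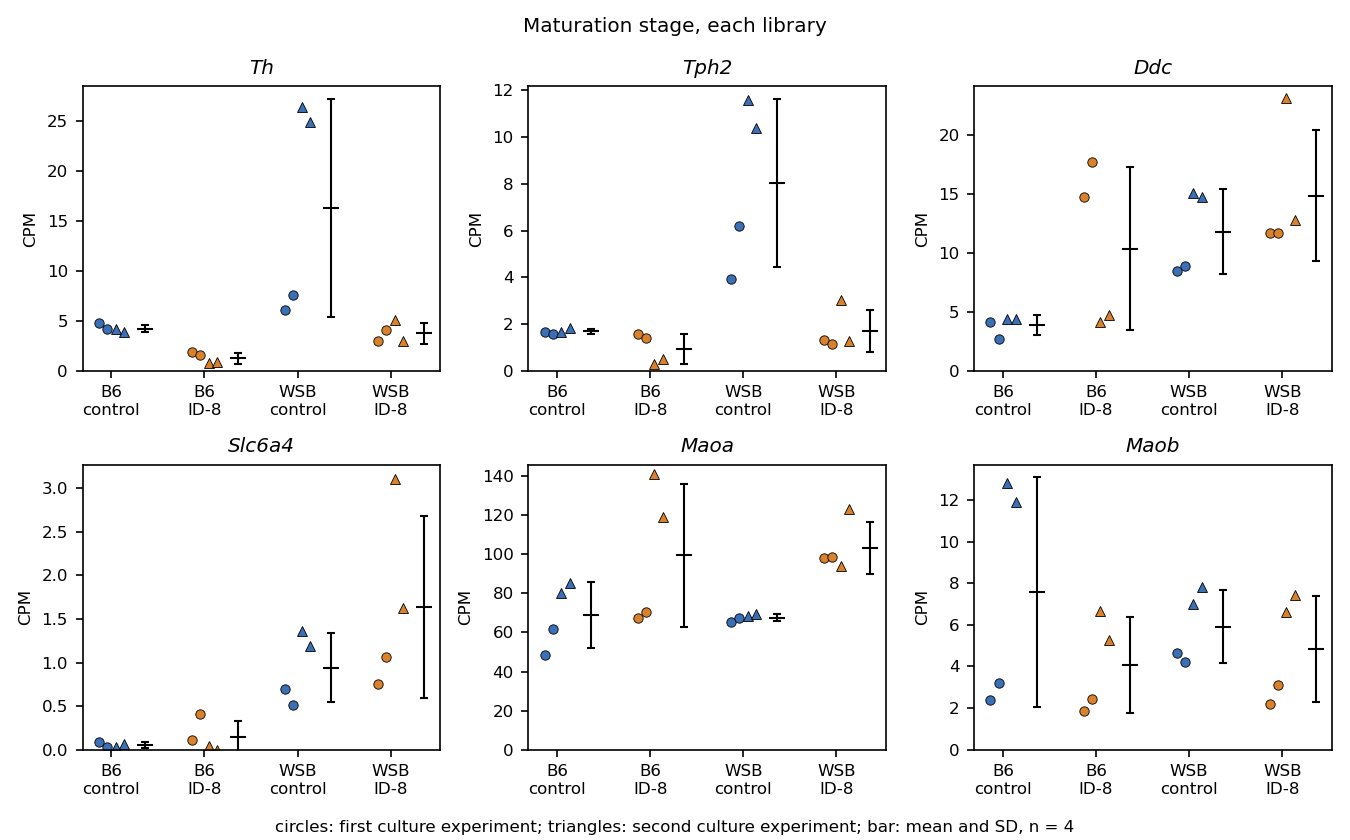
CPM of 6 genes in each maturation library (circles, first culture experiment; triangles, second) for control (blue) and ID-8 (orange) cultures of each strain, with the mean and SD (n = 4). Th is lower with ID-8 in both strains, B6 Ddc reaches 14.7 and 17.7 CPM with ID-8 in the first experiment alone, and Maob in B6 controls is at 2.39 and 3.23 CPM in the first experiment and 12.8 and 11.9 CPM in the second.

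ID-8 thus called 2 of 9 members in B6 at maturation, 1 higher and 1 lower, where 17.1% of all genes were called, and 2 of 9 in WSB, both lower, where 5.89% were called. With the culture experiment as a replicate block these were 5 of 9 in B6 and 3 of 9 in WSB, where 28.4% and 14.2% of all genes were called. Around them, 6 of 23 monoamine receptors tested rose and 0 fell in B6, led by Adra2a (1.47, adjusted p = 0.000453), Htr1b (1.51, adjusted p = 0.00130) and Htr1a (1.72, adjusted p = 0.00188). In WSB 4 rose, Htr1b among them (1.52, adjusted p = 0.00359), and 1 fell. The sulfotransferase gene Sult1a1 fell in both strains (-3.88, adjusted p = 5.57e-06, and -2.64, adjusted p = 0.000349), as did Hnmt, which inactivates histamine (-1.56 and -1.04). The cofactor enzyme gene Pcbd1 fell by 1.34 and 1.40, and the floor plate factor gene Foxa2 fell in WSB by 1.55 (adjusted p = 0.000917). None of the 6 pan-neuronal or 4 astrocyte markers passed in either strain. The endothelial markers Pecam1, Cdh5 and Kdr summed to 16.5 to 29.4 CPM in B6 controls and 2.25 to 6.99 CPM in B6 ID-8, with 2 of 3 lower, Kdr by -3.43 (adjusted p = 9.07e-05) and Cdh5 by -1.64 (adjusted p = 0.0469). In WSB their sums were 25.3 to 48.4 and 8.31 to 35.4 CPM, and 0 of 3 passed. Of 4 endoderm and liver markers tested, 2 were higher in B6 and 1 in WSB. The part of these cell types in the members' changes was not tested.

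Strain differences at maturation ran toward WSB. Slc6a4 stood at 0.0932, 0.0326, 0.0298 and 0.0671 CPM in B6 controls and 0.703, 0.517, 1.36 and 1.19 CPM in WSB controls, higher by 3.99 ± 0.84 on the log2 scale (adjusted p = 0.00457). Tph2 was higher in WSB by 2.24 ± 0.49 (adjusted p = 0.00552), Th by 1.94 ± 0.44 (adjusted p = 0.00756), Ddc by 1.59 ± 0.44 (adjusted p = 0.0223) and Slc18a2 by 0.95 ± 0.23 (adjusted p = 0.0108). None of these 5 genes, already picked by the test, overlapped between the strains' controls, and the share of all genes without overlap was not counted. Without B6 control replicate 2 or WSB control replicate 3 or 4, Ddc no longer passed (adjusted p 0.0573 to 0.0703). Together 5 of 9 members were higher in WSB and 0 lower, where 14.8% of all genes were called, and the members' median difference was 0.95 beside -0.00078 over all genes. Maoa and Maob differed by -0.029 ± 0.21 and -0.35 ± 0.54, and neither passed. The fibroblast marker sum was 307 to 472 CPM in B6 and 912 to 2720 CPM in WSB controls, and the astrocyte sum 448 to 3240 CPM and 2820 to 3940 CPM. Their part in the strain differences was not tested.

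At the axon stage, the serotonin genes followed the culture set, that is, the name shared by libraries in the deposited table, more than strain, ID-8 or cutting. In the 4 libraries of set WSB I, Tph2 stood at 142 to 176 CPM, Slc18a2 at 143 to 179 CPM, Slc6a4 at 112 to 243 CPM and Ddc at 33.8 to 52.5 CPM. In the other 10 WSB libraries, the library against its label left out, the same genes ran over 3.62 to 12.2, 2.60 to 12.7, 2.35 to 16.2 and 4.52 to 9.32 CPM. Set WSB I did not overlap the others for any of these 4 genes, and no library of either strain outside WSB I came above 13.3 CPM for Tph2 or 55.5 CPM for Slc6a4. The share of all genes that set WSB I apart in this way was not counted.

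Among B6 sets, Tph2, Slc18a2 and Slc6a4 also differed together, at lower levels, while Ddc went the other way. Sets r13 and r1313, 7 libraries, held Tph2 at 7.48 to 13.3 CPM, Slc18a2 at 17.5 to 43.8 CPM and Slc6a4 at 14.2 to 55.5 CPM. Sets 2 and 3, 8 libraries, held them at 1.97 to 3.68, 5.07 to 8.82 and 1.03 to 3.99 CPM. Ddc stood at 5.44 to 5.88 CPM in r13 and 3.49 to 4.47 CPM in r1313. It was higher in set 2, at 6.12 to 9.73 CPM, and in set 3, at 6.14 to 11.6 CPM. The library against its label, nominally WSB, held Slc6a4 at 31.2 CPM, Slc18a2 at 25.3 CPM and Tph2 at 7.28 CPM. Dbh reached 0.307 to 3.83 CPM in sets r13 and r1313 and 1.72 CPM in that library, and stayed at or below 0.429 CPM in every other axon library.

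Among the regulators of serotonergic identity, Fev stood, as Tph2 and Slc6a4 did, in the order WSB I, B6 r13 and r1313, then B6 sets 2 and 3. The place of the other WSB sets beside B6 differed. Medians in B6 r1313 and WSB 2 were 4.51 and 1.81 CPM for Fev, but 7.94 and 9.85 CPM for Tph2. Fev, the factor that switches on serotonergic genes in hindbrain neurons, was at 32.1 to 38.0 CPM in WSB I, at 0.790 to 1.97 CPM in the other WSB sets, at 4.03 to 5.85 CPM in B6 r13 and r1313 and at 0.209 to 0.932 CPM in B6 sets 2 and 3. Gata2 was at 97.8 to 144 CPM in WSB I and at 7.32 to 29.7 CPM in all other libraries of both strains, and Gata3 at 84.6 to 97.7 against 7.30 to 39.0 CPM. The order did not hold for all of them: the median of Gata3 was 18.1 CPM in B6 r13 and r1313 and 20.4 CPM in B6 sets 2 and 3, Lmx1b overlapped between WSB I, at 53.2 to 71.1 CPM, and B6 r13 and r1313, at 40.9 to 66.6 CPM, and Nkx2-2 reached 8.68 CPM in WSB I and 14.6 CPM in the other WSB sets. The cofactor gene Gch1, for the first enzyme of tetrahydrobiopterin synthesis, was at 51.5 to 72.2 against 3.43 to 17.2 CPM, and Slc22a3 at 39.1 to 50.9 against 1.03 to 10.4 CPM. These genes were looked up by set after set WSB I had been seen to stand apart. In WSB I the fibroblast marker sum was 21.5 to 32.6 CPM against 658 to 3910 CPM in the others, the library against its label left out, and the astrocyte sum 1100 to 1290 against 1410 to 16800 CPM. The astrocyte markers did not all go that way. Gfap was lowest in WSB I, at 74.0 to 152 CPM, but Aldh1l1 had its highest set median there, 178 CPM. Slc1a3, at 580 to 627 CPM in WSB I, lay above every B6 library (highest 446 CPM). The pan-neuronal sum was 4670 to 5270 against 1830 to 5290 CPM. The part of these cell types in the members' levels was not tested, and whether the sets are separate stem cell lines or differentiations is not stated in the sources used here.

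**Figure D4:**
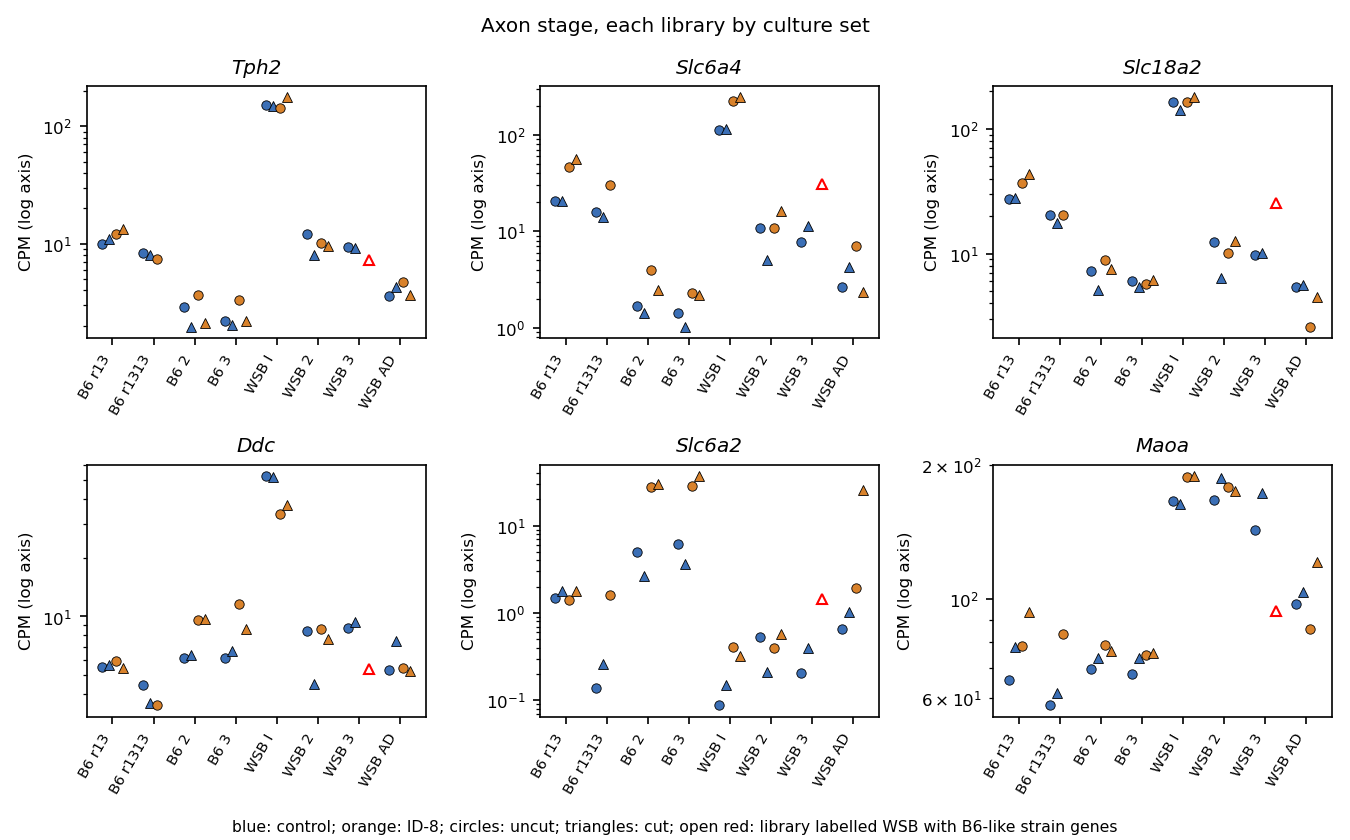
CPM on a log axis of 6 genes in each axon library, by culture set (x axis), with control in blue, ID-8 in orange, uncut as circles, cut as triangles and the library against its strain label as an open red triangle. Tph2, Slc6a4, Slc18a2 and Ddc are highest in set WSB I, Slc6a2 is higher with ID-8 in B6 sets 2 and 3, and Maoa is higher in WSB sets I, 2 and 3 than in B6.

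The oxidases gave the strain difference that held without set WSB I. Maoa ran over 57.7, 75.0 and 93.7 CPM (lowest, median, highest) in 15 B6 libraries and over 85.7, 166 and 189 CPM in 14 WSB libraries, and the library against its label held 94.3 CPM. The overlap came from set WSB AD, at 85.7 to 121 CPM, which was also a library block of its own. In uncut controls Maoa was higher in WSB by 1.35 ± 0.16 (adjusted p = 2.77e-05) and in cut controls by 1.30 ± 0.16 (adjusted p = 3.57e-05). Within the library block that holds both strains the values were 1.35 and 1.34, and without WSB I 1.31 and 1.32, all past the threshold. Of the 50-base words of Maoa transcripts 3.98% also occur in transcripts of other genes. Maob ran over 1.96, 2.80 and 4.44 CPM in B6 and 4.12, 6.20 and 9.35 CPM in WSB libraries and was higher by 1.23 ± 0.28 (adjusted p = 0.00465) in uncut and by 1.09 ± 0.28 (adjusted p = 0.00942) in cut controls. Within that block these were 1.22 and 1.18, and without WSB I 1.18 and 0.82, all past the threshold. The astrocyte marker sum was 1410 to 2850 CPM in B6 and 1100 to 16800 CPM in WSB, and its part in the Maob difference was not tested.

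Other strain calls at this stage rested on few libraries. Ddc was called higher in WSB in uncut controls (2.09 ± 0.70, adjusted p just under 0.05) and in cut controls (2.11 ± 0.71, adjusted p = 0.0433), and without WSB I the values were 0.60 and 0.54 (adjusted p = 0.201 and 0.228). Leaving out any of the 4 B6 controls or WSB replicate 4 ended the Ddc calls as well. Tph2 differed by 3.35 ± 1.22 and Slc6a4 by 2.20 ± 1.42 in uncut controls, neither passing, and by 0.81 ± 0.73 and -0.13 ± 1.30 without WSB I. In uncut controls Slc6a2 was lower in WSB by -3.84 ± 1.17 (adjusted p = 0.0317) and Dbh by -4.41 ± 1.45 (adjusted p = 0.0457). Leaving out any of 3 WSB or 2 B6 replicates ended the Slc6a2 call, with adjusted p from 0.0729 to 0.0885. Leaving out any of the 4 WSB replicates or B6 replicate 1 or 3 ended that of Dbh, with adjusted p from 0.0532 to 0.269. In cut controls neither passed (-3.31, adjusted p = 0.0545, and -3.02, adjusted p = 0.134), but Slc6a2 did without B6 replicate 2 (-3.68, adjusted p = 0.0376) and with DESeq2 (-3.18, adjusted p = 0.0104). Tph2 in cut controls differed by 3.35 ± 1.22 (adjusted p = 0.0628) and passed without WSB replicate 2 (3.77, adjusted p = 0.0463). Th in cut controls was lower in WSB by -3.33 ± 1.00 without WSB I (adjusted p = 0.02) and by -1.81 ± 0.93 with it (adjusted p = 0.196). In all 5 of 10 members were called in uncut controls, 3 higher and 2 lower, where 13.2% of all genes were called, and 3 of 10 in cut controls, all higher, where 16.2% were called.

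Cutting the axons moved no member past the threshold. In each of B6 control, WSB control, B6 ID-8 and WSB ID-8 cultures, 0 of 10 members were called by edgeR and 0 by DESeq2, where 0.0% of all genes were called by edgeR. At an unadjusted p under 0.05 there were 0, 0, 0 and 1 members, the last being Dbh in WSB ID-8, where the library against its label held 1.72 CPM and the others at most 0.28 CPM. Without that library the Dbh difference was 3.90 ± 1.95 by edgeR (unadjusted p = 0.0572). With the culture set as a replicate block as well, it was 3.87 ± 1.18 (unadjusted p = 0.00374, adjusted p = 0.189). That blocked fit gave an unadjusted p under 0.05 for Th and Slc6a2 too. Th differed by -1.28 ± 0.46 in WSB controls (unadjusted p = 0.0114, adjusted p = 0.108). Slc6a2 differed by 2.08 ± 0.88 in WSB ID-8 (unadjusted p = 0.0291, adjusted p = 0.281). The median differences of the 10 members were -0.072, -0.019, -0.026 and -0.062. Libraries of a culture set varied together, and with the set as a replicate block and that library left out 0 of 9 members tested were called in all 4, where 0.00554%, 1.51%, 0.0% and 0.0222% of all genes were called. The strain difference in the response to cutting called 0 of 10 members (0.0% of all genes; 0 at an unadjusted p under 0.05; DESeq2 called 0).

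ID-8 at the axon stage called 0 of 10 members in each of the 4 comparisons, B6 and WSB, uncut and cut (0.0% of all genes by edgeR; DESeq2 called 0), and the strain difference in the uncut response called 0 of 10 (0.0% of all genes; DESeq2 called 0). At an unadjusted p under 0.05 there was 1 member in B6 uncut, Slc6a2, 0 in WSB uncut, 1 in B6 cut, Slc6a2, 2 in WSB cut, Dbh and Slc6a2, and 0 for the strain difference. Without the library against its label, the WSB cut differences by edgeR were 1.60 for Dbh (unadjusted p = 0.245) and 2.72 for Slc6a2 (unadjusted p = 0.0521). With the culture set as a replicate block and the library against its label left out, 4.54%, 11.2%, 4.12% and 1.73% of all genes were called in B6 uncut, WSB uncut, B6 cut and WSB cut. Of the 9 members then tested 1 was called, Th in WSB uncut, with -1.68 ± 0.53 (adjusted p = 0.0456). With that library kept, the same block gave -1.38 ± 0.69 for Th in WSB uncut (adjusted p = 0.257). It then called 0 of 10 members in all 4 comparisons.

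Th was lower with ID-8 in all 13 pairs of libraries of the same set and cut state, over 7 sets, the pair with the library against its label left out. In uncut WSB it went from 0.417 to 0.0983 CPM in set 2, from 3.66 to 0.638 CPM in set AD and from 2.87 to 1.87 CPM in set I. In uncut B6 it went from 5.03 to 4.08 CPM in set r13, from 2.97 to 2.87 CPM in r1313, from 2.29 to 0.812 CPM in set 2 and from 2.10 to 1.27 CPM in set 3. The blocked differences were -0.61 ± 0.40 in B6 uncut and -0.84 ± 0.45 in B6 cut, which did not pass (adjusted p = 0.428 and 0.401), and -0.51 ± 0.52 in WSB cut (adjusted p = 0.696). The uncut and cut libraries of a set share its source, so the 13 pairs are not independent. The share of all genes moving 1 way in as many pairs was not counted, here or for the genes below.

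Slc6a4 was higher with ID-8 in 11 of the 13 pairs. Maoa was also higher in 11 of 13, with a blocked difference of 0.25 ± 0.084 in B6 uncut that did not pass (adjusted p = 0.0921). In B6 Slc6a4 was higher in all 4 uncut sets, from 20.7 to 46.5 CPM in r13, 15.9 to 30.3 CPM in r1313, 1.70 to 3.99 CPM in set 2 and 1.41 to 2.30 CPM in set 3. In WSB I it went from 112 to 224 CPM uncut and from 114 to 243 CPM cut, while in WSB AD it went from 2.62 to 7.02 CPM uncut and from 4.23 to 2.35 CPM cut. The blocked differences were 1.03 ± 0.29 in B6 uncut (adjusted p = 0.0515), 1.14 ± 0.33 in B6 cut (adjusted p = 0.0570), 0.88 ± 0.30 in WSB uncut (adjusted p = 0.0676) and 0.85 ± 0.31 in WSB cut (adjusted p = 0.173), none past the threshold.

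Slc6a2 with ID-8 was read by set as well. It was higher with ID-8 in 10 of the 13 pairs. It went from 4.96 to 27.6 CPM uncut and 2.68 to 29.8 CPM cut in B6 set 2, and from 6.11 to 28.4 CPM and 3.68 to 36.6 CPM in set 3. In r13 it went from 1.48 to 1.41 CPM uncut and 1.79 to 1.78 CPM cut, and in r1313 from 0.137 to 1.62 CPM uncut. In WSB AD it went from 0.665 to 1.91 CPM uncut and from 1.03 to 25.3 CPM cut. The blocked differences of 1.90 ± 0.62 in B6 uncut, 2.39 ± 0.69 in B6 cut and 3.11 ± 0.87 in WSB cut did not pass (adjusted p = 0.0921, 0.0602 and 0.0781). The trophoblast marker sum was 8.10 to 30.7 CPM in B6 sets 2 and 3 and 0.580 to 16.9 CPM in r13 and r1313, and its part was not tested.

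**Figure D5:**
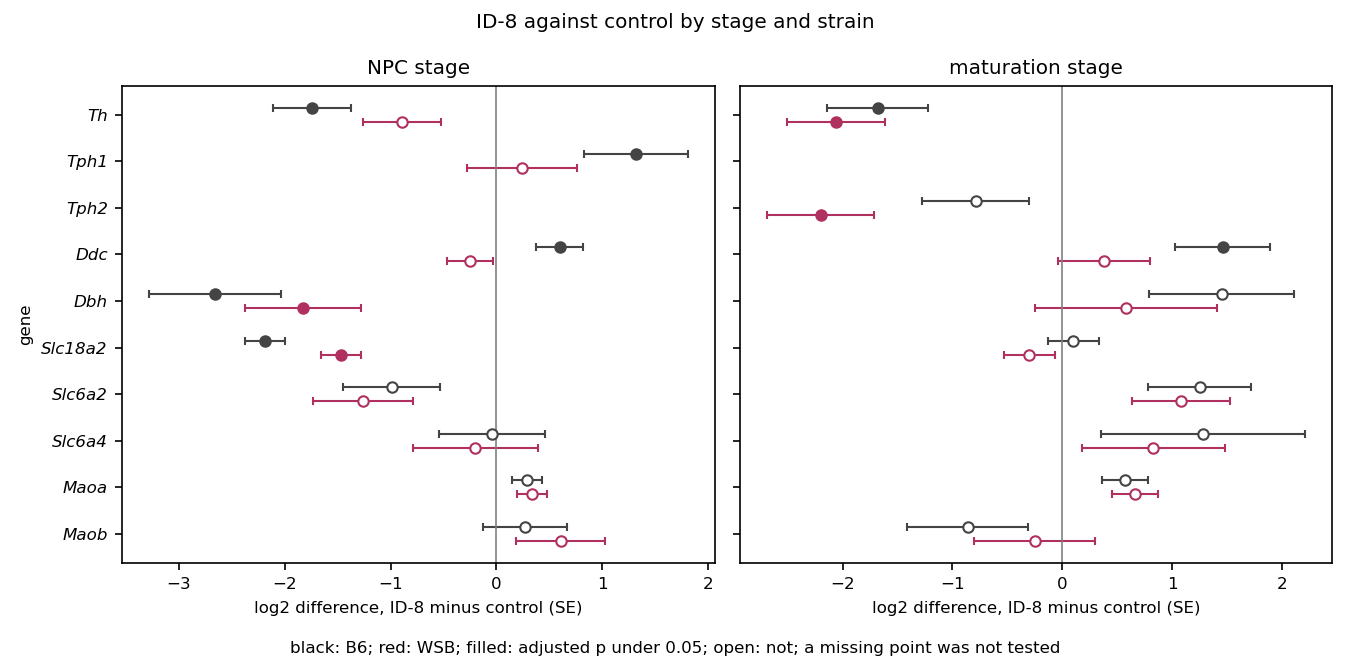
Log2 difference, ID-8 minus control, of each tested gene with its SE in B6 (black) and WSB (red), at the NPC stage (left) and at maturation (right); filled points passed an adjusted p of 0.05. Th lies left of 0 in all 4 comparisons, from -0.89 to -2.06, and Slc18a2 at -2.19 and -1.47 in progenitors but near 0 at maturation.

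Between stages, Tph2, Slc6a4, Maoa and Maob were higher in uncut axon controls than in NPC controls of the same library block in both strains, and Th and Slc6a2 lower. In WSB, 3 NPC controls held 0 Tph2 counts and 3 axon controls averaged 57.4 CPM, at least 1740-fold higher against a floor of 3 counts over the NPC group. That mean was carried by the 151 CPM of set WSB I: without it the other 2 axon controls averaged 10.8 CPM, at least 327-fold higher against the same floor. In B6, Tph2 averaged 5.85 CPM in 4 axon controls and rose by 5.6 ± 1.39 (adjusted p = 0.00515). Slc6a4 rose by 5.50 ± 1.42 in B6 (adjusted p = 0.00476) and by 9.41 ± 1.78 in WSB (adjusted p = 0.000715), the WSB value resting on 6 NPC counts. Both WSB calls held without the axon library of set WSB I. Maoa rose by 0.93 ± 0.17 and 2.58 ± 0.19 (adjusted p = 0.00043 and 6.81e-07) and Maob by 1.69 ± 0.43 and 3.92 ± 0.50 (adjusted p = 0.00467 and 3.98e-05). Th fell by 2.06 ± 0.55 and 4.22 ± 0.66 (adjusted p = 0.00565 and 0.000182) and Slc6a2 fell by 3.25 ± 0.83 and 4.78 ± 1.08 (adjusted p = 0.00461 and 0.00237). In B6, 6 of 9 members tested were called, 4 higher and 2 lower, where 63.6% of all genes were called. In WSB, 8 of 9 were called, 5 higher and 3 lower, where 58.8% were called. The third WSB gene to fall, Dbh, at -4.18 ± 1.37 (adjusted p = 0.0196), no longer passed without axon replicate 2 (adjusted p = 0.0634) or NPC replicate 6 (adjusted p = 0.0607), and Slc18a2 passed without axon replicate 2 or 3 (2.39 and 2.41, adjusted p = 0.046 and 0.0401).

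Maturation and NPC libraries belong to different library blocks, so stage and block cannot be told apart there. Maoa was higher at maturation by 1.00 ± 0.17 in B6 and 1.12 ± 0.17 in WSB (adjusted p = 1.91e-05 and 4.73e-06) and Maob by 2.90 ± 0.47 and 3.82 ± 0.50 (adjusted p = 1.34e-05 and 7.45e-07). Slc6a2 was lower by -6.93 ± 0.54 and -4.22 ± 0.48 (adjusted p = 3.8e-10 and 9.48e-08), from a mean of 36.9 to 0.303 CPM in B6. Slc6a4 was lower in B6 (-2.35 ± 0.68, adjusted p = 0.00413) and higher in WSB (3.03 ± 0.55, adjusted p = 4.52e-05). In B6, 8 of 9 members were called, 3 higher and 5 lower, where 73.3% of all genes were called (Dbh joined them at -1.66, adjusted p = 0.032, without B6 maturation control replicate 1), and in WSB 7 of 9, 5 higher and 2 lower, where 74.3% were called. Over the 4 stage comparisons, 15 to 21 monoamine receptors rose of 23 or 25 tested, led at the axon stage by Htr7, which was higher by 7.47 in B6 and 6.11 in WSB (adjusted p = 9.83e-08 and 1.64e-07). Over all genes, 5273 and 5059 of 17400 rose at the axon stage and 6487 and 6777 of 17608 at maturation, in B6 and WSB. How many receptors fell is not given here.

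For the 8 members averaging at least 1 CPM, the genes whose group means over all 16 groups were most like theirs were taken by Pearson's r of log2(CPM + 1). For Tph2 these were Fev (r = 0.984), Gm10561 (0.962) and Pgf (0.958), for Slc6a4 Disc1 (0.986), Pik3ip1 (0.973) and Slc22a3 (0.972), and for Slc18a2 Slc10a4 (0.945), Frem2 (0.928) and Colgalt2 (0.924). For Th they were Mxra7 (0.903), BC034090 (0.902) and Usp25 (0.898), for Ddc Rin2 (0.902), Rlbp1 (0.873) and Blvrb (0.868), and for Slc6a2 Aqp3 (0.958) and Gjb5 (0.938). For Maoa they were Cyp2j9 (0.979), Abcd3 (0.977) and Asrgl1 (0.976), and for Maob A2m (0.977) and Cyp7b1 (0.966). The groups share stages, strains and library blocks, and set WSB I lies in the 4 WSB axon means, so these values only describe the 16 means.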

How the data were processed

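RNA was sequenced from 70 libraries of mouse neural cultures (76 sequenced samples, 6 libraries with repeat runs). The deposited values are expected counts per gene, which the authors made with tools listed as Bowtie2, RSEM, featureCounts and limma on GRCm38, per the submitters' processing notes, which give no versions or settings; 9.318% of values were not whole. Per the labels' protocols, RNA was column-purified and libraries were made with a stranded mRNA kit and sequenced as read pairs. Of 38924 gene identifiers, 37607 matched a symbol in the annotation of the same build.

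Repeat runs were summed and sums rounded. Each stage was fitted with all its groups in edgeR 4.0.16 (R 4.3.3): filterByExpr, TMM factors (0.811 to 1.1), the robust quasi-likelihood test, and Benjamini-Hochberg adjustment over all genes tested, called under 0.05. A library block term entered the NPC and axon fits. The comparison of axon with NPC used libraries of the second block alone. Differences are log2 values with standard errors, and levels are means with SD. DESeq2 1.42.0, other filters and scalings, block terms, and leaving out libraries were the alternatives. Tph1 or Tph2 fell under the filter where 9 members are given as tested. The procedure was tested on simulated data.

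Libraries that share a culture name were checked for pairing by the correlation of their deviations from group means. At the axon stage 21 of 21 B6 pairs were above 0.1 (lowest 0.64), as were 19 of 21 WSB pairs, and 19 of 19 (lowest 0.60) without the library against its label. In B6 progenitors 3 of 3 pairs were above 0.1 in the second block and 3 of 3 in the first (lowest 0.12 and 0.1). These names, from the labels and the deposited table, were taken as pairing. At maturation 40 of 48 pairs were above 0.1, and the experiment was taken as a block because the culture names of the second mark it. In WSB progenitors 2 of 3 pairs were above 0.1 in the second block, and there the names were not taken as pairing.

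The members and lists, markers included, were chosen with earlier results of these data known. Beyond the 10 members, genes are named by the rule that takes up to 3 called genes of each list with the smallest p, and the 3 most like each member in group means, of which some are not reported here. Levels by culture set, Slc6a3 and regulators at the axon stage were looked up after values were seen. Strand of counting is not given in the sources used here: Ddc and Slc6a4 overlap genes on the opposite strand. Reads carried no stated molecular identifiers, so the limit from a count of 0 covers counting error only.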

Additional observations from a re-analysis of the deposited data

Results flagged for a closer look

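Within groups of 4 to 10 libraries, 93 sets of values of members averaging at least 1 CPM were screened for 1 library far from the rest, and 18 were flagged, where chance alone flags about 1 in 20 groups. Most belong to 1 culture set and are not independent of each other: the control uncut, control cut and ID-8 cut libraries of axon set WSB I held Tph2 at 151, 148 and 176 CPM, Slc18a2 at 166, 143 and 179 CPM, Slc6a4 at 112, 114 and 243 CPM and Ddc at 52.5, 52.0 and 37.2 CPM, each above the other libraries of its group. Slc6a2 stood at 25.3 CPM in axon WSB ID-8 cut replicate 4, of set WSB AD, above its group. Th stood at 26.6 CPM in NPC WSB ID-8 replicate 1. At maturation Ddc was low at 2.68 CPM in B6 control replicate 2 and high at 23.1 CPM in WSB ID-8 replicate 3, Tph2 was high at 3.03 CPM in WSB ID-8 replicate 3, and Maoa was high at 123 CPM in WSB ID-8 replicate 4.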

How the results depend on the processing

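No member changed direction past the threshold under any alternative run. The counts of members called that moved by over 1.5 times, or from 0, were these, and except where fewer libraries were fitted the cause was not tested. For most of these fits the share of all genes called is not given here. Their counts therefore cannot set the members apart from other genes. Between NPC controls of the strains (4), the first library block alone called 1 and the second 2, Ddc and Tph2, neither among the 4. For ID-8 in B6 progenitors (5) these were 1 and 3, and 3 in the first block with the replicate block. In WSB progenitors (2), no library block term called 1, the first block 1, the second 0, and the first with the replicate block 0. With culture names as replicate block, the strain difference in progenitors called 1 in place of 0 (Ddc, -0.81, adjusted p = 0.0374) and ID-8 in WSB added Slc6a2 (-1.49, adjusted p = 0.00908). Both calls rest in part on WSB names of the second block, which were not taken as pairing.

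At maturation, ID-8 in B6 (2) gave 4 with DESeq2 and 5 with the culture experiment as replicate block, which added Slc6a2, Maoa and Maob (-0.73, adjusted p = 0.0298), and in WSB that block added Maoa (0.66, adjusted p = 0.00971). For the strain difference in uncut axon controls (5), no low-count filter, first runs only and no library block term each called 3, and the second block alone and leaving out set WSB I each called 2. For ID-8 in uncut WSB axon cultures (0), the set as replicate block called 1, both without the library against its label and without WSB I as well. With that library and WSB I kept, the set as replicate block called 0. Leaving out each library in turn gave 1 to 2 for ID-8 at maturation in B6 and in WSB, and 2 to 4 for the strain difference in uncut axon controls. For comparisons within the NPC stage, libraries were not left out in turn. Dbh, Tph1 and, in progenitors, Tph2 and Slc6a4 were limited by depth.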
